A study of Mus musculus with 42 samples.

Results

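The aorta of macroangiopathy mice treated with the huoxue part of SHENQI compound was compared with the aorta of untreated macroangiopathy mice, using the 3 huoxue and 3 macroangiopathy aorta arrays among the 42 arrays of the series. The 6 arrays were chosen by their titles and are described here across all genes. The macroangiopathy group was made of adult male KK/Ay mice, a strain with inherited obesity and type 2 diabetes, that were fed a high-fat diet, drank L-NAME, which blocks nitric oxide synthase, and were gavaged with saline. The huoxue group shared the strain, the sex, the diet and the L-NAME and was gavaged daily with an extract of Salvia miltiorrhiza and rhubarb, so the groups differed in the gavage. Each array held the RNA of a single labelled sample, and the study's methods state that 3 mice of each group were taken for arrays. The other groups of the series were healthy C57 mice, untreated KK/Ay mice, and macroangiopathy mice given SHENQI compound, its yangyinyiqi part or rosiglitazone, each sampled in aorta and skeletal muscle.

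The aortic wall is built from smooth muscle cells between elastic lamellae, lined by endothelium and wrapped in an adventitia of fibroblasts, collagen, fat and nerves. A bulk sample of aorta also holds whatever blood and neighbouring tissue came with the vessel, and in such samples fewer cells of a type and less RNA per cell cannot be told apart. Elastin and fibrillar collagens give the wall its recoil and strength, contractile proteins give it tone, and metallothioneins and glucocorticoid-induced genes are known stress and hormone responses of many tissues.

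The levels below are log2 normalized intensities, and every difference is huoxue minus macroangiopathy on that log2 scale. Between 71.78% and 76.31% of the named probes were well above background on the 6 arrays, and no probe was saturated. The defining genes of the vessel were present: Myh11, the smooth muscle myosin heavy chain, read from 12.65 to 15.38, and all 16 smooth muscle and all 20 endothelial list genes passed the filter on background.

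The arrays did not sort by group. Huoxue array 2 correlated best with macroangiopathy array 3 (r = 0.983 across genes), and huoxue array 3 with macroangiopathy array 2 (r = 0.991). Genes of other cell types moved with those pairs. The mean level of 20 B and T lymphocyte genes was 10.04 on huoxue array 2 and 9.01 on macroangiopathy array 3, and 6.27 to 7.61 on the other 4 arrays. Cardiac genes went the other way, with Myl7, an atrial myosin light chain, at 13.82 on huoxue array 3 and 14.39 and 13.28 on macroangiopathy arrays 1 and 2, against 6.18 on macroangiopathy array 3 and 7.43 on huoxue array 2. Huoxue array 1 had the lowest mean of the 16 smooth muscle genes, 10.89 against 12.12 to 12.72 on the other 5 arrays, and the highest mean of the 12 mesothelial genes, 7.75 against 5.89 to 6.58. The lymphocyte and cardiac markers spanned both groups, whereas the smooth muscle and mesothelial extremes lay on huoxue array 1. Between the groups, 15 of the 16 smooth muscle genes were lower in huoxue aorta and all 7 mesothelial genes tested were higher. The part of these markers in the results below was not tested beyond the fits without an array given beside them.

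**Figure D1:**
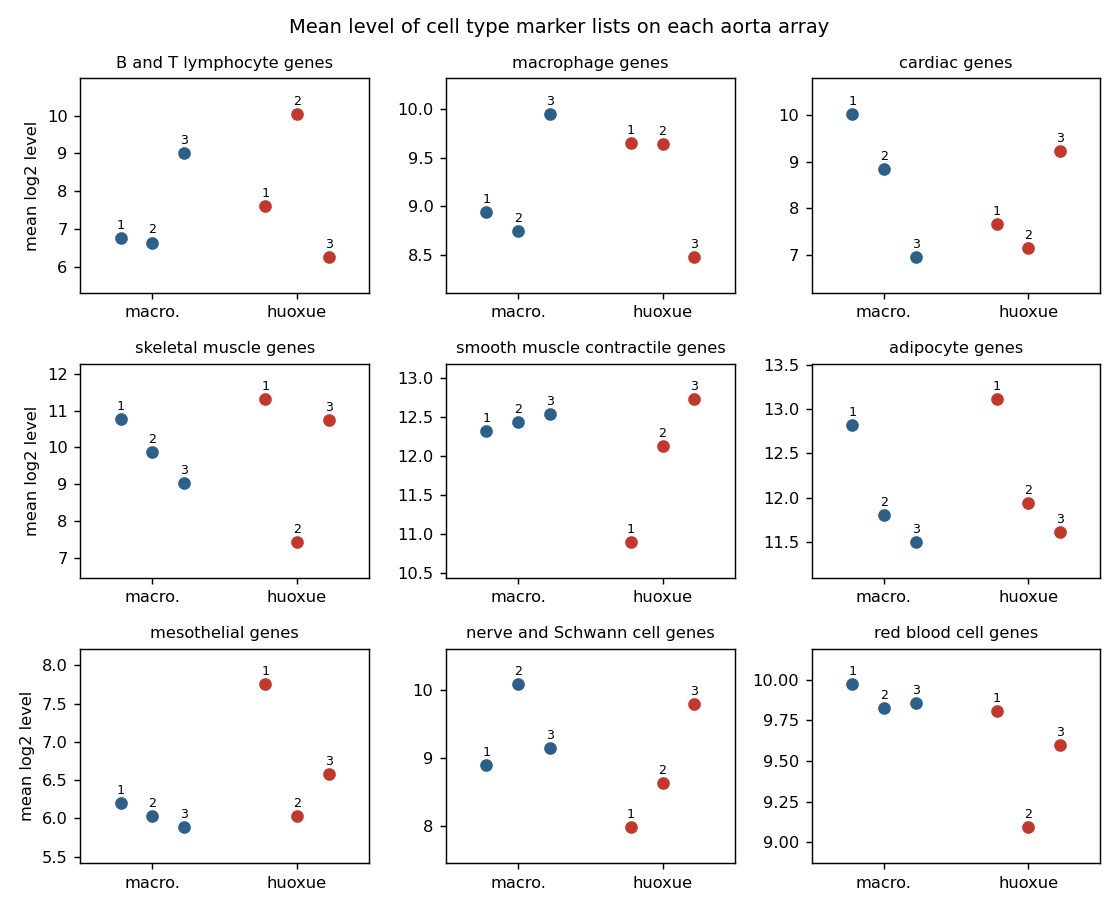
Mean log2 level (y axis) of 9 marker lists on the 3 macroangiopathy (blue) and 3 huoxue (red) aorta arrays (x axis), each point an array with its number. Lymphocyte genes were high on macroangiopathy array 3 and huoxue array 2 (9.01 and 10.04), and smooth muscle genes were low on huoxue array 1 (10.89).

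Of 15472 genes tested with limma, 321 (2.07%) had an unadjusted P below the study's threshold of 0.05, of which 178 (1.15%) were higher and 143 (0.924%) were lower in the huoxue aorta. No gene passed after Benjamini-Hochberg adjustment, where the smallest adjusted P was 0.9998. With the scanner software's own processed signal, scaled at its upper quartile, 426 genes were higher and 92 lower at the unadjusted threshold, so that 82.24% of the called genes were higher against 55.45% here. The groups did not overlap in 1156 genes (7.47%). The genes called higher were mostly dim, with a median level of 6.72, and those called lower were brighter, with a median of 9.13, against 7.76 for all genes tested. In what follows, rose and fell refer to the unadjusted threshold. The share called was below the share that the threshold itself would pass if no gene differed, so each named gene stands as a measured difference and not as an adjusted call.

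**Figure D2:**
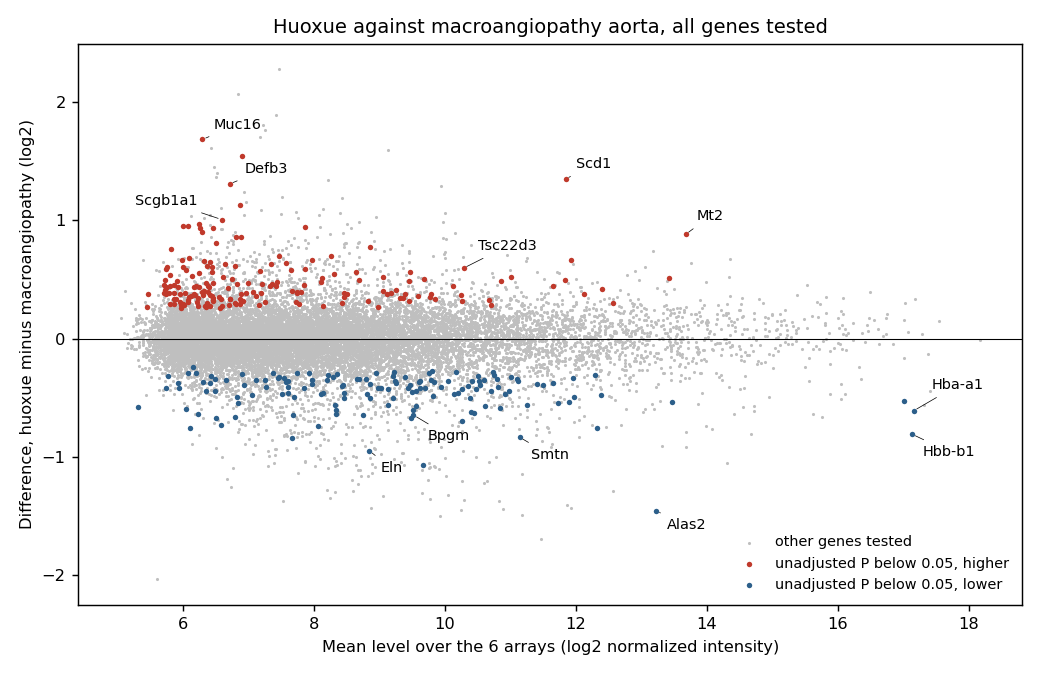
Difference between huoxue and macroangiopathy aorta (y axis, log2) against the mean level over the 6 arrays (x axis, log2 normalized intensity) for the genes tested, with genes at an unadjusted P below 0.05 in red (178 higher) or blue (143 lower). Alas2 and the globin genes lie at the bright, lower end, and Scd1 and Mt2 are the bright genes among the labelled increases.

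No slide held arrays of both groups: the macroangiopathy aorta arrays lay on slide 6, huoxue arrays 1 and 2 on slide 9 and huoxue array 3 on slide 10. Slide and group can be separated only in a fit of the 12 aorta arrays on those 3 slides. There the yangyinyiqi arrays, 1 on slide 6 and the others on slide 9, link the slides. Slide 10 held rosiglitazone arrays besides huoxue array 3, so huoxue array 3 does not enter the difference in that fit. The difference sets huoxue arrays 1 and 2 against macroangiopathy, corrected by yangyinyiqi array 1 against yangyinyiqi arrays 2 and 3. The level on yangyinyiqi array 1 thus enters it in full. For Eln that level was 10.33, against 8.15 and 9.08 on yangyinyiqi arrays 2 and 3. With slide as a fixed block in that fit, 211 genes had an unadjusted P below 0.05, 157 higher and 54 lower, and 28 of them were among the 321. Its values are given for the main genes below.

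The probes and upstream regions of Alas2, which fell most among the named genes, and of Mt2, which had the smallest P of the named genes, are shown with those of Mt1, the neighbour of Mt2. The array's 60-base probes, with positions in mm9, read 5′ to 3′ as follows.
Alas2, chrX:147004993-147005052, plus strand: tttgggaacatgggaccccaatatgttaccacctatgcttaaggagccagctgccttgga
Mt2, chr8:96697371-96697430, plus strand: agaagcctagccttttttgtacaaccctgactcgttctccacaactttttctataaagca
Mt1, chr8:96704011-96704070, plus strand: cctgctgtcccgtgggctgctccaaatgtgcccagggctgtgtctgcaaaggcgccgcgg
Mt1, chr8:96703844-96703903, plus strand: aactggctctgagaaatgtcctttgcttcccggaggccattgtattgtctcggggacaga

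The 250 bases upstream of the RefSeq start of each gene, on GRCm38.p6, were searched on both strands for letters tied to each gene's known regulators. For the metallothioneins the search was for the core of the metal response element, TGCACNC or TGCGCNC, where the zinc-sensing factor MTF1 binds, and for Alas2 it was for AGATAA or TGATAA, read by GATA factors of red cell precursors. Capitals mark the matches.
Mt2, chr8:94172368-94172617, plus strand: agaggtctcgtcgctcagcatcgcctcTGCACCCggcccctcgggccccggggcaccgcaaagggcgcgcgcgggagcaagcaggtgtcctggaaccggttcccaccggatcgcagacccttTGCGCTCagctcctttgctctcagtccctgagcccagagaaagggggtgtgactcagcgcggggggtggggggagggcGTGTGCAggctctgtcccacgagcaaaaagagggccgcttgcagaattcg
Mt1, chr8:94178839-94179088, plus strand: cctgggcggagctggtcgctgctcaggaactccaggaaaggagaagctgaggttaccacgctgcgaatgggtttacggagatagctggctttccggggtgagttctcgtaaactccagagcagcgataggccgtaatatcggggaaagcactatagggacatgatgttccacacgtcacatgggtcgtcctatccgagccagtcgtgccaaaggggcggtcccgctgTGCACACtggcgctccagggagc
Alas2, chrX:150547167-150547416, plus strand: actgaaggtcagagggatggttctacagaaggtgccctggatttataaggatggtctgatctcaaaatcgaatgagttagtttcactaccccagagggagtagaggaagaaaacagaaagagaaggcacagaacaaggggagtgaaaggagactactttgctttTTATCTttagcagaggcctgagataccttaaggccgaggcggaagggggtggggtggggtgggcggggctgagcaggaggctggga

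The Mt2 window held 3 matches, the Mt1 window 1 and the Alas2 window 1. Of all 32851 such windows, 21.4% held the metal response core and 16.6% a GATA match, so a match describes the letters and not a bound site.

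Alas2, the globins and Bpgm, genes of red blood cells, were lower in the huoxue aorta. Of the 9 red blood cell genes tested, 4 fell, against 0.924% of all genes tested, and none rose. The list was chosen with earlier results of these data known, so its share is a description and no further support. All 9 differences were negative, against 50.01% of all genes, and their median was -0.55 against 0.00 over all genes. Alas2, the first enzyme of haem synthesis in red cell precursors, read 13.90, 13.87 and 14.11 on the macroangiopathy arrays and 12.75, 12.10 and 12.66 on the huoxue arrays. Each huoxue array lay below each macroangiopathy array, by more than the spread within either group. The difference was -1.46 ± 0.20 (SE), a 2.75-fold lower level (limma, unadjusted P = 0.000337).

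Hbb-b1, adult beta globin, read 17.58, 17.45 and 17.59 in macroangiopathy and 16.87, 16.31 and 17.02 in huoxue aorta. Its 4 probes gave differences from -0.63 to -0.96, and together they gave -0.81 ± 0.20 (limma, unadjusted P = 0.00708). Hba-a1, alpha globin, fell by 0.61 ± 0.22 on the log2 scale, and the difference was -0.40 without huoxue array 2. Globin genes have near-identical copies, and RefSeq now lists the accession of these Hbb-b1 probes under Hbb-bt, so the copies cannot be told apart here. Bpgm, which makes the bisphosphoglycerate that tunes oxygen release, read 9.90, 9.75 and 9.89 in macroangiopathy and 9.33, 9.04 and 9.24 in huoxue aorta, a difference of -0.65 ± 0.12 (limma, unadjusted P = 0.00203). In macroangiopathy muscle Bpgm was higher than in aorta, at 10.79, 10.44 and 10.78, whereas Alas2 was far lower there, at 9.79, 10.05 and 9.59. Between the tissues Bpgm thus did not follow Alas2, and its signal need not come from red cells alone.

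Outside that list, Hbq1a, the theta globin gene, fell by 0.66, and Fam46c (Tent5c in RefSeq), a poly(A) polymerase, by 0.76. Hbq1a kept the call in 4 and Fam46c in 2 of the 6 fits without 1 array. With slide as a fixed block they differed by -0.15 and -0.07. The other tested genes of the red cell list did not pass. Among them, Slc4a1, the anion exchanger of the red cell membrane, differed by -0.37 with a 95% interval from -1.07 to 0.34 and Ahsp, the alpha globin chaperone, by -0.10 (-1.17 to 0.97). Without any single array, 3 or 4 of the red cell genes still passed, and without huoxue array 2 and macroangiopathy array 3 together, 3 did. None passed with slide as a fixed block and the list's median turned to 0.06. In that fit Alas2 differed by -0.47 ± 0.84, Hbb-b1 by -0.65 ± 0.44 and Hba-a1 by 0.00 ± 0.63, and Bpgm by 0.28 ± 0.52, with its sign turned.

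Across the series, the level of Alas2 in aorta was lowest in healthy mice, at 11.29, 11.89 and 12.54, and read 14.90, 12.97 and 13.02 in untreated KK/Ay mice. The huoxue arrays thus lay between the lowest healthy array and the lowest untreated KK/Ay array. Rosiglitazone arrays 1 and 2 were at 12.80 and 12.43, near the huoxue arrays, while array 3 was at 14.28.

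Mt2, Tsc22d3 and Sgk1 rose among the metallothionein and glucocorticoid-responsive genes. They were 3 of the 15 such genes tested, against 1.15% of all genes that rose, and none fell. This list too was chosen with earlier results of these data known. The median of the 15 differences was 0.19, and 12 were positive, where 50.01% of all genes were lower. Mt2, a metallothionein that binds zinc and copper, read 13.17, 13.27 and 13.28 in macroangiopathy and 14.12, 13.98 and 14.26 in huoxue aorta. The groups were separated by far more than their spread, and the difference was 0.88 ± 0.12, a 1.84-fold higher level (limma, unadjusted P = 0.000309). Mt1 lies beside Mt2 and makes a similar protein. It read 10.74, 10.87 and 10.54 in macroangiopathy and 11.11, 10.78 and 10.82 in huoxue aorta, which overlapped, with a difference of 0.19 (-0.18 to 0.55). Its probes printed above differed by 0.35 and 0.03 in that order, the second of them much dimmer.

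Tsc22d3, the glucocorticoid-induced leucine zipper, read 10.13, 10.08 and 9.76 in macroangiopathy and 10.66, 10.48 and 10.62 in huoxue aorta. Its 3 probes gave 0.48, 0.62 and 0.69, and the gene rose by 0.60 ± 0.14 (limma, unadjusted P = 0.00528). Sgk1, the serum- and glucocorticoid-regulated kinase, read 7.92, 7.62 and 8.08 against 8.15, 8.45 and 8.46 and rose by 0.48 ± 0.17. One of its probes was not above background on any of the 6 arrays, and the bright probe differed by 0.60. Fkbp5 and Per1, which glucocorticoids also induce, differed by 0.25 (-0.16 to 0.66) and 0.08 (-0.34 to 0.51) and did not pass. Without any single array, 2 to 4 genes of the list passed.

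In the fit with slide as a fixed block, Mt2 differed by 0.93 ± 0.71, Tsc22d3 by 0.67 ± 0.36 and Sgk1 by 0.90 ± 0.27, and among these Sgk1 alone passed (limma, unadjusted P = 0.00945). In the other aorta groups Mt2 read 17.08, 15.33 and 14.66 in healthy mice and 13.29, 12.61 and 13.21 in untreated KK/Ay mice. The macroangiopathy arrays thus lay within the range of the untreated KK/Ay arrays, and the huoxue arrays above it and below the healthy arrays. Higher levels were not particular to huoxue. Mt2 read 14.89, 14.95 and 13.66 with rosiglitazone, 13.89, 13.25 and 14.29 with yangyinyiqi, and 13.90, 13.71 and 13.18 with SHENQI compound. Mean Tsc22d3 and Sgk1 were 10.79 and 8.45 with rosiglitazone and 10.54 and 8.42 with yangyinyiqi, against 10.59 and 8.36 with huoxue. With SHENQI compound these means were 9.99 and 8.09.

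**Figure D3:**
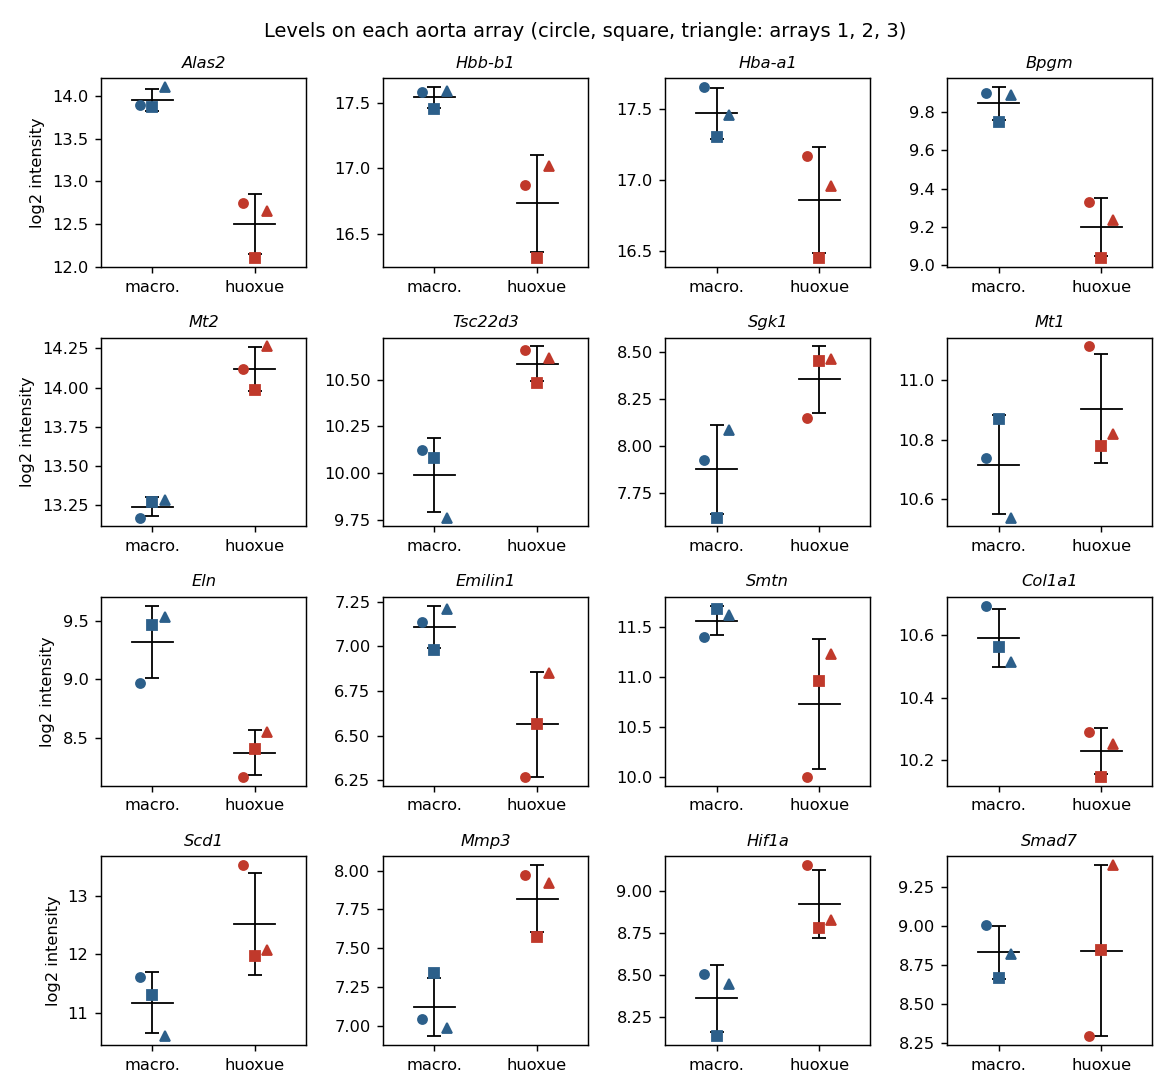
Levels of 16 genes (y axis, log2 normalized intensity, each panel with its own range) on the 3 macroangiopathy (blue) and 3 huoxue (red) aorta arrays, with mean and SD bars. Alas2, Hbb-b1, Mt2 and Tsc22d3 separate the groups on every array, whereas Mt1 and Smad7 overlap.

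Few genes of the arterial wall passed. Beside the list counts here and below stand the shares of all genes tested: 1.15% rose, 0.924% fell and 50.01% were lower. Eln, which encodes tropoelastin, read 8.97, 9.47 and 9.53 in macroangiopathy and 8.17, 8.41 and 8.55 in huoxue aorta. The groups did not overlap, and the difference was -0.95 ± 0.20 (limma, unadjusted P = 0.00287). Emilin1, a glycoprotein of elastic fibres, fell by 0.55 ± 0.18. These were the genes called among 17 elastic fibre genes tested, whose median was -0.26. The fibrillin gene Fbn1 differed by -0.10 (-0.61 to 0.41), and the fibulin genes Fbln1 and Fbln2 by 0.05 and -0.04. Eln turned with slide as a fixed block to 0.68 ± 0.61 and Emilin1 was at -0.27 ± 0.41.

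All 17 collagen chain genes were lower, with a median of -0.27, and Col1a1, the main chain of type I collagen, was the 1 that fell, by 0.36 ± 0.11, from 10.69, 10.56 and 10.51 to 10.29, 10.15 and 10.25. No collagen gene passed without macroangiopathy array 1, and 5 did without huoxue array 3. Of the 16 smooth muscle genes, 15 were lower, with a median of -0.53, and Smtn, a cytoskeletal protein of contractile smooth muscle, was the 1 that fell, by 0.83 ± 0.33. The smooth muscle difference came with huoxue array 1. Acta2, smooth muscle actin, read 10.86 on that array and 12.86 and 13.18 on the other huoxue arrays, against 12.67, 12.77 and 12.94 in macroangiopathy aorta. Without huoxue array 1 the Acta2 difference turned to 0.23 and the median of the list to 0.10, and Smtn was at -0.47. Myh11 and Tagln differed by -0.81 (-2.49 to 0.87) and -0.47 (-1.81 to 0.87) and did not pass.

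Wisp2 (Ccn5 in RefSeq), a matricellular protein of vascular smooth muscle, fell by 0.67 ± 0.16, from 9.80, 9.71 and 9.94 to 9.02, 8.99 and 9.41. Mmp3, stromelysin, which cuts matrix proteins, rose by 0.70 ± 0.17, from 7.04, 7.34 and 6.98 to 7.97, 7.57 and 7.92 (limma, unadjusted P = 0.00549), the 1 of 14 metalloproteinase and inhibitor genes that passed. Among 15 fibroblast and adventitial genes, Lum, the collagen-binding proteoglycan lumican, rose by 0.42 ± 0.12 and Pi16 fell by 0.48 ± 0.18. Lum was higher with slide as a fixed block as well, by 1.12 ± 0.30.

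TGF-beta signalling passes from receptors to Smad2 and Smad3, which pair with Smad4, and is held back by Smad7. Of 30 genes of that list, Smad2 rose by 0.30 ± 0.11, Smad4 rose by 0.37 ± 0.13 and the ligand Bmp4 fell by 0.39 ± 0.15, with a list median of -0.08. Of all genes tested, 1.15% rose and 0.924% fell. Bmp4 was at -0.25 without huoxue array 2 and turned to 0.70 with slide as a fixed block. None of the 30 passed without macroangiopathy array 1 or without macroangiopathy array 2. The study names Smad7 and Dbp for huoxue and does not say in which tissue. Smad7 read 9.01, 8.67 and 8.82 in macroangiopathy and 8.30, 8.84 and 9.39 in huoxue aorta, a difference of 0.01 with an interval from -0.69 to 0.71. Dbp, a clock output factor, differed by 0.36 (-0.61 to 1.33) in aorta, and none of the 13 regulators that the study names and that were tested here passed in aorta. In skeletal muscle Dbp differed by 1.36, from 12.22, 13.59 and 13.59 to 14.64, 14.39 and 14.44, and Smad7 by -2.94. Slide and treatment cannot be told apart in muscle.

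Other lists held 1 or 2 members that passed, where 2.07% of all genes tested did. Scd1, which makes monounsaturated fatty acids, read 11.62, 11.30 and 10.60 in macroangiopathy and 13.52, 11.96 and 12.08 in huoxue aorta, a 2.55-fold higher level (difference 1.35 ± 0.49), as the 1 of 16 fatty acid synthesis genes called. Huoxue array 1 was the highest, and without it the difference was 0.85. In the fit with slide as a fixed block it was 1.07 ± 0.85 and did not pass. Healthy aortas, from C57 mice, read 13.05, 16.64 and 16.82 for Scd1, above all macroangiopathy arrays. Higher Scd1 was not particular to huoxue. It read 12.89, 12.17 and 13.38 with SHENQI compound and 11.99, 11.99 and 12.99 with yangyinyiqi. With rosiglitazone it read 11.14, 11.69 and 11.28, and in untreated KK/Ay mice 12.06, 11.42 and 11.23. Hif1a, the hypoxia-inducible subunit, rose by 0.56 ± 0.16 in the list of 23 VEGF and angiopoietin genes. It was at 8.50, 8.13 and 8.44 in macroangiopathy and at 9.15, 8.78 and 8.83 in huoxue aorta, and was higher by 0.85 ± 0.30 with slide as a fixed block.

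Psma1 and Psma6, subunits of the proteasome core, rose by 0.30 ± 0.12 and 0.49 ± 0.13 among 34 proteasome genes, and Prps1, which makes the phosphoribosyl donor of purine synthesis, rose by 0.39 ± 0.10. Madcam1, a mucosal adhesion molecule, rose by 0.39 ± 0.11. Hsp90ab1, a chaperone, fell by 0.39 ± 0.14, and Nr1h2, the liver X receptor beta, fell by 0.28 ± 0.10. Psma1, Psma6 and Prps1 still passed with slide as a fixed block, at 0.52, 0.57 and 0.62.

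**Figure D4:**
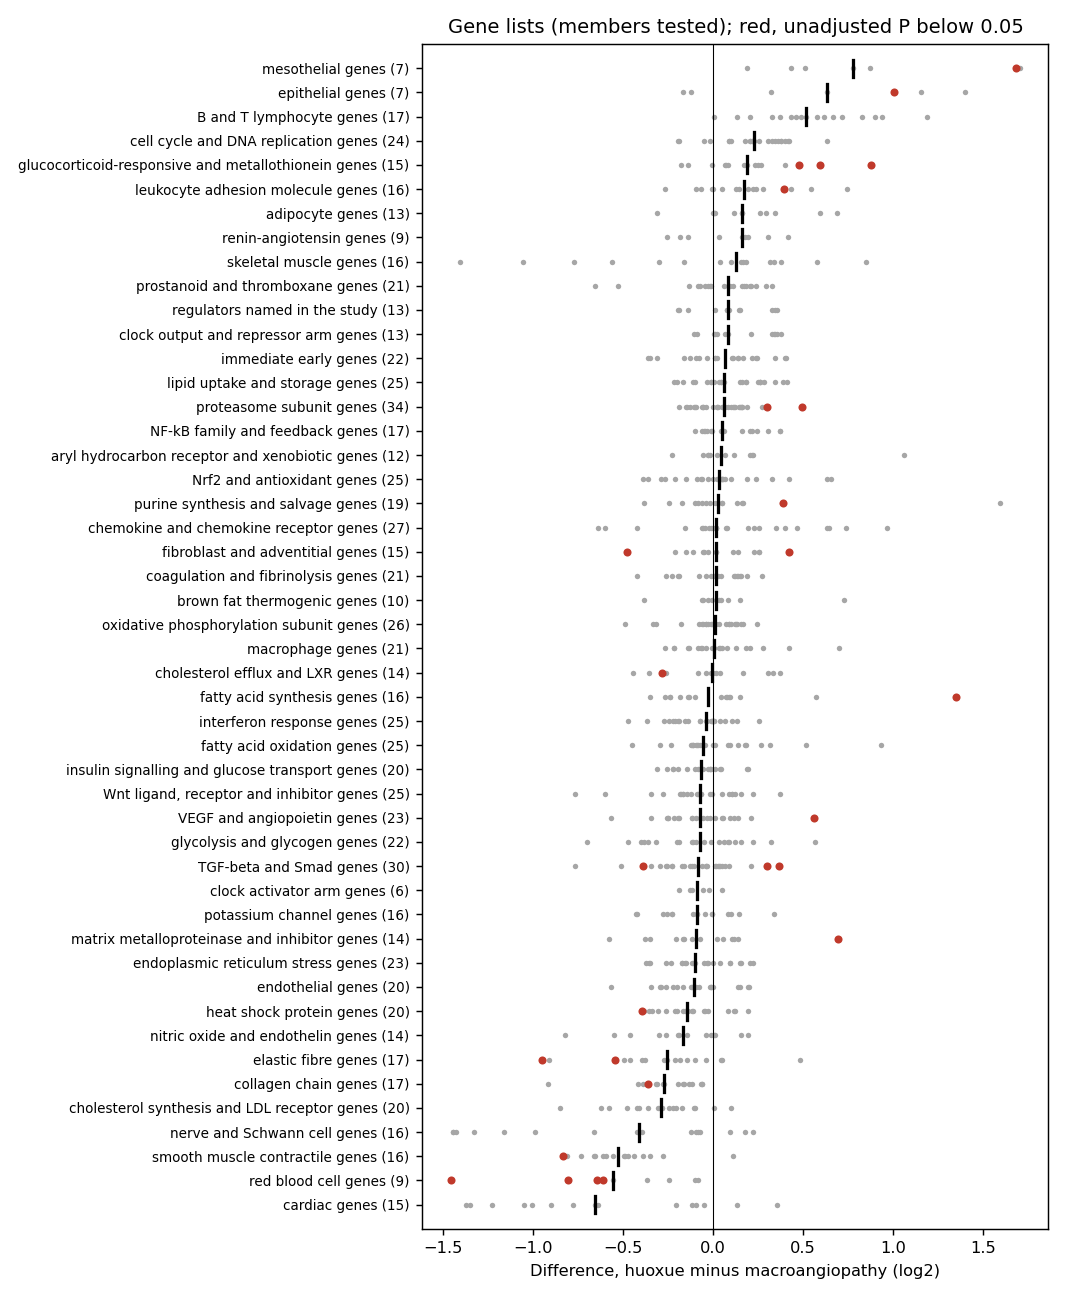
Differences between huoxue and macroangiopathy aorta (x axis, log2) for the tested members of 48 gene lists (y axis, number tested in brackets), with called members in red and the list median as a black bar. Red blood cell genes hold 4 called members, all below 0, and 31 of the lists hold none.

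The largest increases were mainly dim genes. Defb3, a beta defensin, rose by 1.31 ± 0.50, the odorant receptor Olfr930 by 1.13 ± 0.46 and the vomeronasal receptor Vmn1r195 by 0.86 ± 0.31, all from levels under 7.0. Without 1 array, huoxue 1 for Defb3 and huoxue 2 for the other two, these differences were 0.78, 0.63 and 0.55. Vmn1r195 turned to -0.15 with slide as a fixed block. Scgb1a1, a secretoglobin of airway club cells, read 6.32, 6.12 and 5.82 in macroangiopathy and 7.01, 6.87 and 7.41 in huoxue aorta, a difference of 1.01 ± 0.20 (limma, unadjusted P = 0.00245). Rims1, a scaffold of presynaptic release sites, rose by 0.86 ± 0.16, from 6.40, 6.23 and 6.73 to 7.25, 7.28 and 7.41. Psors1c2, Banf2, Acot4, a peroxisomal thioesterase, and Calml4 rose by 0.78 to 0.94. Kcp, a secreted modulator of BMP signalling, rose by 0.94 ± 0.31. Without huoxue array 2 Kcp was at 0.60 and Banf2 at 0.59, without huoxue array 1 Acot4 was at 0.53, and without macroangiopathy array 1 Calml4 was at 0.49. Olfr930, Vmn1r195, Kcp and Banf2 had their lowest mean in macroangiopathy among the aorta groups. Each peaked within its group on huoxue, untreated KK/Ay and yangyinyiqi array 2 and on rosiglitazone array 3. There Vmn1r195 read 7.88, 8.32, 8.74 and 9.05. The cause of these shared peaks was not tested. Mean Olfr930 was 7.89 in untreated KK/Ay mice and 7.44 with huoxue. Defb3 read 12.59 on rosiglitazone array 1. Mean Rims1, Acot4 and Calml4 were highest with huoxue.

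Among decreases, Nlgn2, a neuroligin of inhibitory synapses, fell by 0.74 ± 0.23, Dctn1, a subunit of the dynein adaptor dynactin, by 0.70 ± 0.21, and the apolipoprotein L genes Apol11b and Apol10b by 0.73 ± 0.19 and 0.67 ± 0.22. Dctn1 was at 0.01 with slide as a fixed block, and the apolipoprotein L genes turned to 0.31 and 0.41.

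Some genes were well above background on all 3 arrays of one group and on none of the other. Muc16, a mucin of mesothelium, read 8.69, 6.09 and 6.65 in huoxue and 5.70, 5.32 and 5.36 in macroangiopathy aorta. Its mean was higher in huoxue aorta by a bound of 3.16-fold. Such a bound sets the brighter group against, on each array of the dimmer group, the higher of the lowest signal among probes well above background and the signal of the gene itself. Muc16 was brightest on huoxue array 1, which also had the highest level of the mesothelial list, and without that array its fitted difference was 0.91 instead of 1.68. By the same bound the odorant receptors Olfr141, Olfr1205, Olfr615 and Olfr801 were 1.93, 1.69, 1.5 and 1.46-fold higher, and the defensin Defb42 was 1.29-fold lower. For Olfr141, Olfr1205 and Olfr801 the signal of the gene itself was the higher one, so the bound equals the fitted fold. The fitted difference of Olfr615 was 0.61, and 0.38 without huoxue array 2. Mean Olfr141 and Olfr801 were 7.16 and 6.51 in untreated KK/Ay mice, above 6.55 and 6.08 with huoxue. Mean Olfr1205 and Olfr615 were highest with huoxue among the aorta groups. These genes entered the test through 1 group alone, so their calls are no further support.

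The 48 gene lists held 832 different genes tested, of which 27 (3.25%) were called against 2.07% of all genes tested. As the lists were chosen with earlier results of these data known, the higher share is no further support. Of the lists, 31 had no called member, 11 had 1 and 6 had more. Lists without a called member included the endothelial genes (20 tested, median -0.10), the nitric oxide and endothelin genes (14, median -0.17), the chemokine genes (27, median 0.02), the interferon response genes (25, median -0.04), the Nrf2 and antioxidant genes (25, median 0.03), the coagulation genes (21, median 0.02) and the macrophage genes (21, median 0.01). The 20 cholesterol synthesis and LDL receptor genes had a median of -0.29 with none called. Lymphocyte and cardiac genes had medians of 0.52 and -0.65 with none called, and differed far more between arrays of one group than between the groups.

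Of the 48 genes named here that passed, 42 were above background on all 6 arrays, and 15 of these passed in each of the 6 fits that left out 1 array: Alas2, Hbb-b1, Bpgm, Mt2, Tsc22d3, Eln, Wisp2, Mmp3, Rims1, Scgb1a1, Acot4, Apol11b, Dctn1, Psma6 and Prps1. The others lost the call without at least 1 of the arrays. In the fit of all aorta arrays, 33 of the 48 lost the call, among them Mt2 (limma, unadjusted P = 0.0807), Scgb1a1 (0.134) and Eln (0.143). Of the 15, Alas2, Hbb-b1, Rims1, Acot4, Apol11b and Psma6 passed there. Of the 42, with slide as a fixed block, 35 kept their direction and 7 passed with that direction, and the other 7 turned: Eln, Bpgm, Bmp4, Dctn1, Apol11b, Apol10b and Vmn1r195. The 7 that passed were Sgk1, Lum, Hif1a, Psma1, Psma6, Prps1 and Calml4. All values of the slide fit depend on the level of yangyinyiqi array 1, the link on slide 6. Leaving out huoxue array 3 raised the number of genes called to 913, 317 higher and 596 lower, so that 34.72% of them were higher against 55.45% with all 6 arrays. Leaving out macroangiopathy array 2 or 3 lowered it to 96 or 160, and leaving out huoxue array 2 and macroangiopathy array 3 together, a setting chosen after the values were seen, gave 117.

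**Figure D5:**
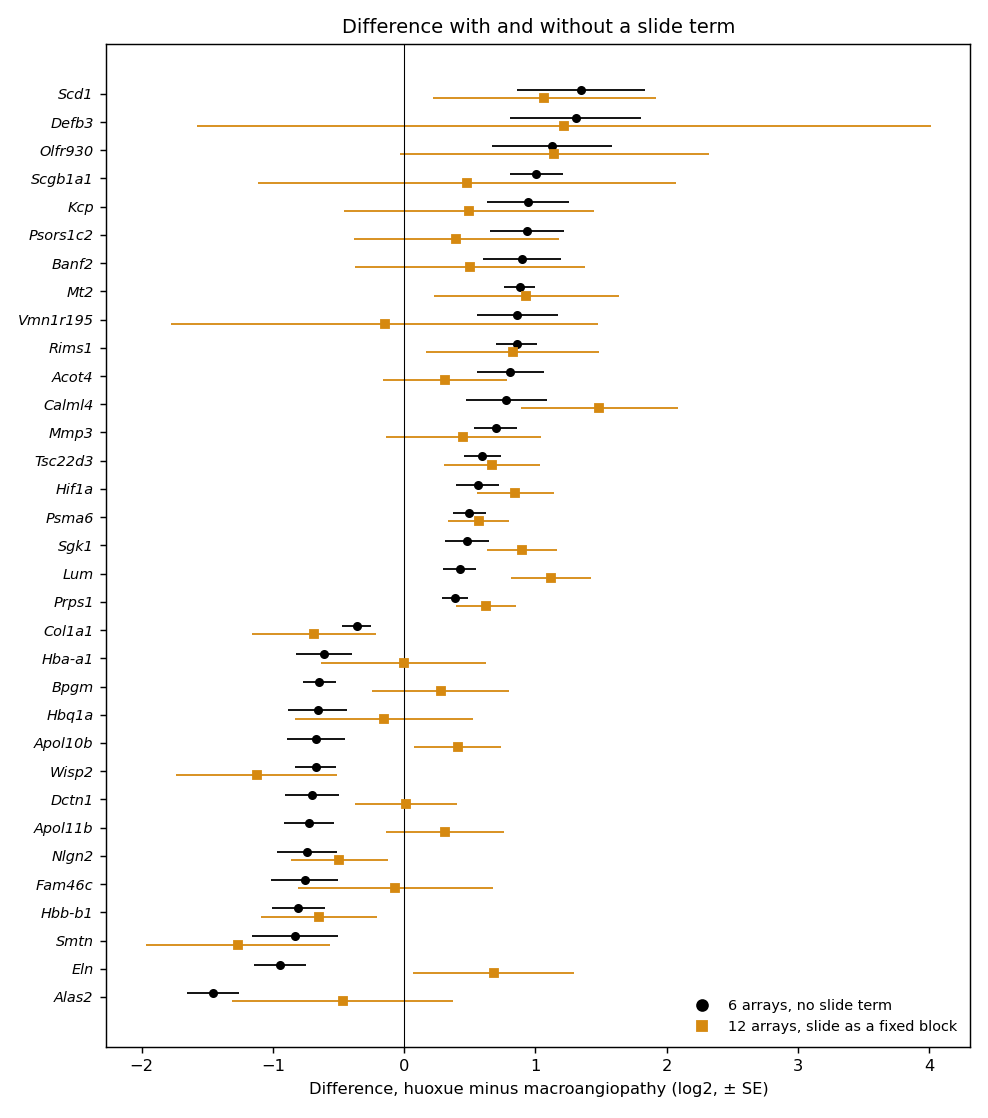
Differences between huoxue and macroangiopathy aorta (x axis, log2, ± SE) for 33 named genes (y axis) in the fit of 6 arrays (black circles) and in the fit of 12 aorta arrays with slide as a fixed block (orange squares). Mt2 and Tsc22d3 have like values in both (0.88 and 0.93, 0.60 and 0.67), Eln changes side (-0.95 and 0.68), and the slide fit has the wider errors. The slide fit takes its link on slide 6 from yangyinyiqi array 1.

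To see whether the aorta and skeletal muscle changes differed, the interaction of group and tissue was tested on 12 arrays. Of 15727 genes tested, 479 (3.05%) had an adjusted P below 0.05 (limma), 395 with a more positive change in aorta and 84 with a more negative one. Of the 321 genes called in aorta, 42 were among them. Alas2 differed by -1.46 in aorta and 0.49 in muscle, an interaction of -1.95 ± 0.31 (limma, adjusted P = 0.00975). Smad7 had nearly equal means in aorta and was lower in muscle, where it read 8.53, 8.46 and 8.11 in macroangiopathy and 5.32, 5.59 and 5.37 in huoxue mice, an interaction of 2.95 ± 0.33 (limma, adjusted P = 0.00211). The huoxue muscle arrays lay on a slide of their own among these groups, slide 11, and had 53.84% to 57.3% of named probes above background against 60.94% to 66.17% for macroangiopathy muscle, so slide and treatment cannot be told apart on the muscle side of the interaction.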

How the data were processed

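RNA from mouse aorta and skeletal muscle was hybridised to 1-colour Agilent 4x44K arrays, 1 array per sample. The deposited scanner files, per the file headers, hold spot intensity and local background intensity from Agilent Feature Extraction 10.7.3.1, not normalized between arrays, on a design placed on mm9; the submitters' processing notes name version 10.7. The authors' value table holds log2 expression of the same arrays and was used as an alternative; its scale beyond log2 and its centring are not given in the sources used here. The study's methods state that both tissues were taken from 3 mice of each group. No label ties an aorta array to a muscle array of the same mouse, and the test between tissues treats all arrays as independent.

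The median spot signals of 42 arrays were background-corrected (normexp, offset 0), quantile normalized and taken to log2 with limma 3.58.1 in R 4.3.3, following the study's methods. The median was used because most files lack the mean. Control spots and outlier flags were left out, spots averaged per probe and probes per gene symbol (41174 probes, 34891 with a symbol, 21186 genes). Symbols are those of the array design; of 84 probes of the named genes, 77 matched a RefSeq accession, 71 under the same symbol. Genes entered the test if all 3 arrays of either group flagged one of their probes as well above background. lmFit and eBayes were run on the 6 arrays, with the study's unadjusted P threshold of 0.05 and Benjamini-Hochberg adjustment. The number of arrays limits the precision, and the fits were tested on simulated data.

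Named were the 12 largest increases and decreases among genes past the threshold whose groups did not overlap and which were above background on all 6 arrays, genes above background in 1 group only (up to 5 a direction), Smad7 and Dbp, and called members of each list with further members in list order. Under these rules 27 unnamed or predicted symbols were passed over, and some genes that the rules name are not reported here. The members and lists were chosen with earlier results of these data known. Alternatives covered background correction, normalization, filters, probe choice, the arrays fitted, slide, a replicate block and each array left out; the filter was the same in all but the filter alternatives. Feature sequences were read from the array files (mm9) and RefSeq promoter windows (GRCm38.p6), and coordinates were not converted between builds.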

Additional observations from a re-analysis of the deposited data

Results flagged for a closer look

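The changes of 13 named genes differed between aorta and skeletal muscle by the interaction of group and tissue (limma, 12 arrays, adjusted P below 0.05), given as the aorta minus the muscle change on the log2 scale. More positive in aorta were Smad7 (2.95), Rims1 (1.43), Mmp3 (1.12), Tsc22d3 (1.04), Hif1a (0.90), Psma6 (0.84), Psma1 (0.68) and Smad2 (0.62). More negative in aorta were Alas2 (-1.95), Eln (-1.33), Wisp2 (-1.07), Apol11b (-0.99) and Bpgm (-0.95). For Smad7 the aorta change was 0.01 and the muscle change -2.94, so its interaction came from muscle. Tsc22d3 changed by 0.60 in aorta and -0.45 in muscle, and Eln by -0.95 and 0.39. Slide and treatment cannot be told apart in muscle, and the number of genes with such an interaction fell from 479 to 21 in the fit of all 42 arrays.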

How the results depend on the processing

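The number of genes with an adjusted P below 0.05 in aorta (limma) stayed at 0 under every alternative run. The number at an unadjusted P below 0.05 moved from 321 to 518 with the processed signal at its upper quartile, 529 with no filter, 119 in the fit of all aorta arrays, 211 with slide as a fixed block and 117 without both arrays of highest lymphocyte level. Leaving out 1 array gave 96 to 913. In the authors' value table it was 399, with 76.32% of the 321 shared. The tissue interaction count of 479 became 21 in the fit of all 42 arrays and 268 with the replicate block, and ran from 195 to 602 without 1 array, with 210 and 304 without macroangiopathy aorta 2 and 3, 195, 230 and 296 without macroangiopathy muscle 1, 2 and 3, and 312 and 227 without huoxue muscle 1 and 2. The cause of these moves was not tested.

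With slide as a fixed block the difference turned for Vmn1r195 (-0.15), Eln (0.68), Apol11b (0.31), Dctn1 (0.0143), Apol10b (0.41), Bpgm (0.28), Bmp4 (0.70) and, among genes that were not called, Fbn1 (0.10), Slc4a1 (0.34) and Ahsp (0.67). Other turns were in uncalled genes: Fbn1 (0.0114), Fbln2 (0.0716), Per1 (-0.0189) and Ahsp (0.21) without both lymphocyte-rich arrays, Fbln1 (-0.0162) by the brightest probe, Fbln2 (0.0297) with the processed signal and Smad7 (-0.0020) in the authors' value table. Without 1 array, Smad7 ran from -0.26 to 0.28, Acta2 from -0.93 to 0.23, Tagln from -0.93 to 0.17, Fbn1 from -0.30 to 0.0335, Fbln1 from -0.12 to 0.18, Fbln2 from -0.17 to 0.14, Per1 from -0.0803 to 0.20 and Ahsp from -0.55 to 0.33.

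Replicate numbers did not pair the arrays: the deviations of same-numbered huoxue and macroangiopathy arrays from their group means correlated at 0.60, -0.43 and -0.48 across genes. With the replicate block 239 genes were called in aorta. The labels do not give mice for the arrays, and 3 arrays a group on separate slides limit what can be told.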
